A study of Mus musculus with 12 samples.

Results

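Lymphocytes find the follicle, stay in it or leave it by reading gradients of chemokines, oxysterols and lysolipids with receptors coupled to G proteins. Described here are 9 of 19937 mouse genes that a set of Affymetrix arrays named. Chosen by name for this role were the chemokine receptors Cxcr5, Ccr7 and Cxcr4 and the sphingosine-1-phosphate receptors S1pr1, S1pr2 and S1pr4. With them were the oxysterol receptor Gpr183 (EBI2) and the receptor Gpr18. Added to these was Selplg, which encodes PSGL-1, a selectin ligand and not a receptor coupled to G proteins. All 9 are called receptor genes below. RNA came from 12 samples of CD4+ T cells sorted out of Peyer's patches, clusters of lymphoid follicles in the gut wall, of mice carrying an IL-21eGFP BAC transgene, in which green fluorescent protein (GFP) reports the gene of IL-21, and the stated aim was to set GFP+ against GFP- T follicular helper (Tfh) cells. There were 4 groups of 3 arrays: CXCR5+PD1+ cells that were GFP+ (GFP+ Tfh) or GFP- (GFP- Tfh), CXCR5+PD1- cells and CXCR5-PD1- cells. All were taken from the class II-negative, Epcam-negative CD4+ gate. The titles give both PD1- groups as GFP-, so GFP+ Tfh cells differ from them in the reporter gate as well, and GFP- Tfh cells do not. All 12 samples came from reporter mice, so a non-transgenic sample is not among the groups, and age, sex and the number of animals pooled are not given in the labels.

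As background, T cells enter the T zone through CCR7 and move to the follicle when CXCR5, the receptor for CXCL13, is gained and CCR7 is lost. S1PR1 draws cells out of lymphoid tissue toward sphingosine-1-phosphate in lymph and blood, while S1PR2, which couples to the G protein subunit encoded by Gna13, inhibits migration and confines germinal centre B and Tfh cells to the follicle centre. GPR183 guides activated lymphocytes toward oxysterols at the follicle's edges, CXCR4 responds to CXCL12, and PSGL-1 binds selectins and, on naive T cells, aids entry by binding CCL19 and CCL21.

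Values are log2 expression as deposited, and each group's 3 values are given in the order of the replicate numbers in the titles. The array medians lay between 6.34 and 6.45, and below this level differences can be understated. A gene was tested with limma where it lay above the median on at least 3 arrays, which 11240 genes did, and it passed when its Benjamini-Hochberg adjusted p was under 0.05. All 9 receptor genes were tested, each with 1 probe set, and differences are given ± SE. The labels do not say that replicates are separate animals, so p-values measure only the spread between these samples. In bulk RNA, fewer cells of a type and less RNA per cell cannot be told apart. The characteristics list the GFP+ samples as CXCR5- and PD1-, against their titles and the sorting protocol, and that protocol does not name the CXCR5+PD1- population, which the titles do. Groups follow the titles, and Pdcd1, the gene of PD-1, lay at 8.26 to 9.48 in GFP+ Tfh cells, at 8.75 to 9.43 in GFP- Tfh cells and at 6.81 to 7.31 on the 6 PD1- arrays. All 9 CD4 T cell markers were above the median in each group. The 11 B cell markers measured had a median of -0.35 to -0.14 against the array median. Among them Ms4a1, the gene of CD20, was below the array median on every array at 4.32 to 4.78. Pax5 was above it on all 3 GFP+ Tfh arrays, Cd79b on all 3 CXCR5+PD1- arrays and Vpreb3 on all 3 CXCR5-PD1- arrays. The 3 GFP+ Tfh arrays spread more widely around their mean than the other 9, with root mean square deviations of 0.287 to 0.405, against 0.163 to 0.204. Replicate 3 of each group was female and replicates 1 and 2 male by Xist and Eif2s3y.

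Of the 9 receptor genes, 5 passed in all 4 comparisons of Tfh with PD1- cells, Cxcr4 passed in 1, and S1pr2, S1pr4 and Gpr183 passed in 0. Among the 5 is Cxcr5, whose protein was used in the sort. It lay above the array median on the Tfh arrays alone, so it met the filter only through the groups where it is high. The counts of higher genes in these 4 comparisons include it, and its call is not independent of the sort and the filter. None of the 9 passed by limma between the GFP gates or between the PD1- groups. In GFP+ Tfh over GFP- Tfh cells 0 of 9 passed, beside 0.0445% of all genes tested. In GFP+ Tfh over CXCR5+PD1- cells 6 passed, 2 higher and 4 lower, where 5.89% of all genes passed, 2.58% higher and 3.31% lower. In GFP+ Tfh over CXCR5-PD1- cells 5 passed, 1 higher and 4 lower, where 6.20% of all genes passed, 2.45% higher and 3.75% lower. In GFP- Tfh over CXCR5+PD1- cells it was again 1 higher and 4 lower, beside 3.75% of all genes, 2.33% higher and 1.42% lower. In GFP- Tfh over CXCR5-PD1- cells the counts were the same, beside 3.82% of all genes, 2.22% higher and 1.60% lower. Between CXCR5+PD1- and CXCR5-PD1- cells 0 of 9 passed, as did 0 of all genes by limma, of which 137 (1.22%) had an unadjusted p under 0.05. Without regard to the test, the arrays of the groups did not overlap for 8 of 9 receptor genes in GFP+ Tfh over CXCR5+PD1- cells (19.3% of all genes), 9 in GFP+ Tfh over CXCR5-PD1- cells (18.8%), 8 in GFP- Tfh over CXCR5+PD1- cells (24.6%), 9 in GFP- Tfh over CXCR5-PD1- cells (21.6%) and 0 between the PD1- groups (8.74%). Cxcr5 was higher and Ccr7, S1pr1, Gpr18 and Selplg were lower in each of the 4 comparisons of Tfh with PD1- cells, which share arrays with each other. The median difference of the 9 genes ran from -0.63 to -0.42 in those 4 comparisons, against -0.03 to 0.00 over all genes tested.

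**Figure D1:**
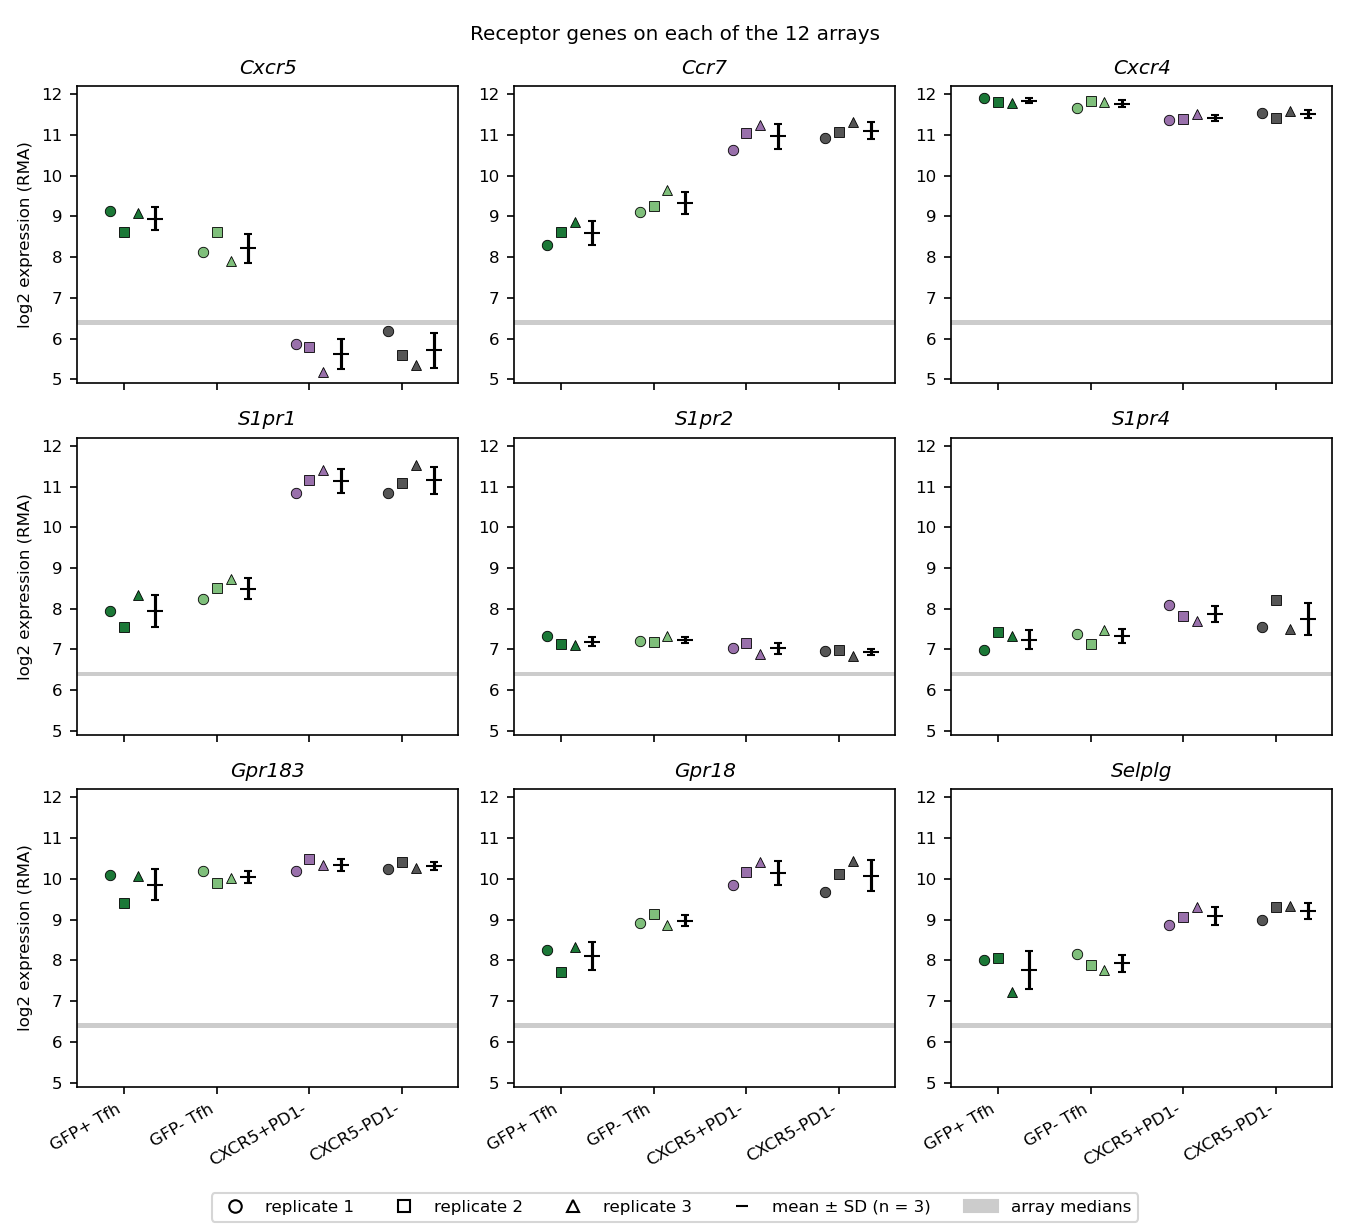
Log2 expression of the 9 receptor genes on each of the 12 arrays by group, with the replicate number as the marker shape, the mean ± SD (n = 3) in black and the range of the array medians as a grey band. Cxcr5 is the 1 gene that lies under the band in the PD1- groups, and Ccr7, S1pr1, Gpr18 and Selplg are lower on all 6 Tfh arrays than on any PD1- array.

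Cxcr5 is the receptor that brings cells to the follicle, and its protein was used in the sort, so its difference between CXCR5+PD1+ and CXCR5- cells reads the gate. Its values were 9.14, 8.62 and 9.08 in GFP+ Tfh cells, 8.11, 8.61 and 7.91 in GFP- Tfh cells, 5.87, 5.78 and 5.19 in CXCR5+PD1- cells and 6.19, 5.59 and 5.36 in the CXCR5-PD1- cells. All 6 Tfh arrays were above all 6 PD1- arrays, and the 6 PD1- arrays were below their array medians, so the Tfh differences may be understated. Over CXCR5+PD1- cells, Cxcr5 rose by 3.33 ± 0.26 in GFP+ Tfh cells (10.1-fold, adjusted p = 4.63e-05, limma) and by 2.60 ± 0.26 in GFP- Tfh cells (6.05-fold, adjusted p = 0.000272). Over CXCR5-PD1- cells it rose by 3.23 ± 0.26 in GFP+ Tfh cells (adjusted p = 4.29e-05, limma) and by 2.50 ± 0.26 in GFP- Tfh cells (adjusted p = 0.000310). The cells sorted as CXCR5+PD1- did not carry more Cxcr5 RNA than those sorted as CXCR5-PD1-. That difference was -0.10 ± 0.26 with a 95% interval of -0.68 to 0.48, with both groups below the array medians.

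Ccr7, the receptor for the T zone chemokines CCL19 and CCL21, ran in the opposite direction. It measured 8.29, 8.61 and 8.87 in GFP+ Tfh cells, 9.10, 9.25 and 9.63 in GFP- Tfh cells, 10.63, 11.03 and 11.24 in CXCR5+PD1- cells and 10.92, 11.08 and 11.32 in the CXCR5-PD1- cells. The 3 classes formed steps that did not overlap, GFP+ Tfh lowest, GFP- Tfh next and the PD1- groups together at the top. The step between the GFP gates did not pass (adjusted p = 0.416, limma). Over CXCR5+PD1- cells, Ccr7 fell by 2.38 ± 0.20 in GFP+ Tfh cells (5.19-fold lower, adjusted p = 7.26e-05, limma) and by 1.64 ± 0.20 in GFP- Tfh cells (3.12-fold lower, adjusted p = 0.000944). Over CXCR5-PD1- cells it fell by 2.52 ± 0.20 in GFP+ Tfh cells and, in GFP- Tfh cells, to 9.33 ± 0.28, against 11.11 ± 0.20 (SD, n = 3 each). Those 2 differences had adjusted p = 4.29e-05 and 0.000582 (limma).

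Cxcr4, which reads the CXCL12 made by stromal cells, moved little. It measured 11.92, 11.81 and 11.79 in GFP+ Tfh cells, 11.66, 11.84 and 11.81 in GFP- Tfh cells, 11.36, 11.40 and 11.51 in CXCR5+PD1- cells and 11.52, 11.41 and 11.60 in the CXCR5-PD1- cells. Every Tfh array lay above every PD1- array. The differences were small, and Cxcr4 passed in 1 comparison, being higher by 0.42 ± 0.11 in GFP+ Tfh over CXCR5+PD1- cells (1.34-fold, adjusted p = 0.0401, limma). That call was lost without GFP+ Tfh replicate 1 (adjusted p = 0.0587) or 2 (0.0737), without CXCR5+PD1- replicate 1 (0.139), 2 (0.137) or 3 (0.0837), with the replicate number as a block (0.0600), with 1 weight per group (0.148) and with only the 2 groups fitted (0.183). The other 3 differences between Tfh and PD1- cells were 0.26 to 0.35, with adjusted p from 0.0986 to 0.292 by limma.

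Among the sphingosine-1-phosphate receptors, S1pr1, the egress receptor, had the widest range. S1pr1 measured 7.94, 7.55 and 8.33 in GFP+ Tfh cells, 8.23, 8.51 and 8.74 in GFP- Tfh cells, 10.83, 11.17 and 11.41 in CXCR5+PD1- cells and 10.85, 11.08 and 11.52 in the CXCR5-PD1- cells. The Tfh and PD1- arrays were more than 2 log2 units apart at their closest, while GFP+ and GFP- Tfh arrays overlapped. In GFP+ Tfh cells S1pr1 fell by 3.20 ± 0.24 over CXCR5+PD1- cells (9.17-fold lower, adjusted p = 3.12e-05, limma) and fell by 3.21 ± 0.24 over CXCR5-PD1- cells (9.25-fold lower, adjusted p = 2.61e-05). In GFP- Tfh cells it fell by 2.64 ± 0.24 over CXCR5+PD1- cells (6.25-fold lower, adjusted p = 0.000160, limma) and by 2.66 ± 0.24 over CXCR5-PD1- cells (adjusted p = 0.000115). Klf2, which encodes an activator of S1pr1 transcription in T cells, was also lower in these 4 comparisons and passed in 3 of them, as given with the partner genes.

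S1pr2, the confinement receptor of follicular cells, did not pass in any comparison. It measured 7.32, 7.13 and 7.11 in GFP+ Tfh cells, 7.21, 7.19 and 7.32 in GFP- Tfh cells, 7.03, 7.17 and 6.90 in CXCR5+PD1- cells and 6.96, 6.99 and 6.85 in the CXCR5-PD1- cells. All 12 arrays were 0.46 to 0.98 above their array medians, and the Tfh arrays lay above the CXCR5-PD1- arrays without overlap. The largest difference was 0.31 ± 0.11 in GFP- Tfh over CXCR5-PD1- cells (95% interval 0.06 to 0.55, adjusted p = 0.216, limma), so an increase of more than 0.55 lay outside that interval.

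S1pr4, a further sphingosine-1-phosphate receptor of lymphocytes, was lower on average in Tfh cells and did not pass. Its values were 6.98, 7.42 and 7.32 in GFP+ Tfh cells, 7.39, 7.12 and 7.47 in GFP- Tfh cells, 8.09, 7.81 and 7.71 in CXCR5+PD1- cells and 7.54, 8.21 and 7.50 in the CXCR5-PD1- cells. Every Tfh array was below every PD1- array, in part by a narrow margin. The 4 differences ran from -0.63 to -0.42 with adjusted p from 0.106 to 0.421 (limma). The 95% interval of GFP+ Tfh over CXCR5+PD1- cells was -1.07 to -0.18.

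Gpr183 and Gpr18 are neighbours on chromosome 14, transcribed from the same strand and both inside the span of Ubac2 in RefSeq's GRCm38.p6 annotation, yet only Gpr18 passed. Gpr18, a receptor of T and B cells known in mice for a role in intraepithelial T cells, measured 8.25, 7.71 and 8.34 in GFP+ Tfh cells, 8.92, 9.13 and 8.87 in GFP- Tfh cells, 9.85, 10.17 and 10.42 in CXCR5+PD1- cells and 9.67, 10.12 and 10.44 in the CXCR5-PD1- cells. Like Ccr7 it formed steps without overlap from GFP+ Tfh through GFP- Tfh to the PD1- groups. It did not pass between the GFP gates (adjusted p = 0.411, limma). It fell by 2.04 ± 0.22 in GFP+ Tfh over CXCR5+PD1- cells (4.13-fold lower, adjusted p = 0.000241, limma) and by 1.98 ± 0.22 over CXCR5-PD1- cells (adjusted p = 0.000280). In GFP- Tfh cells it fell by 1.17 ± 0.22 over CXCR5+PD1- cells (adjusted p = 0.0126, limma) and by 1.10 ± 0.22 over CXCR5-PD1- cells (adjusted p = 0.0173). The GFP- Tfh calls depended on single arrays. Over CXCR5+PD1- cells the call was lost without GFP- Tfh replicate 1 (adjusted p = 0.0568) or 3 (0.0508) or CXCR5+PD1- replicate 2 (0.0545) or 3 (0.0695), and over CXCR5-PD1- cells without GFP- Tfh replicate 1 (0.0666) or 3 (0.0649) or CXCR5-PD1- replicate 2 (0.0665) or 3 (0.0830).

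Gpr183, the oxysterol receptor that holds activated cells at the follicle's outer edge, measured 10.09, 9.42 and 10.06 in GFP+ Tfh cells, 10.20, 9.90 and 10.01 in GFP- Tfh cells, 10.19, 10.49 and 10.34 in CXCR5+PD1- cells and 10.24, 10.42 and 10.28 in the CXCR5-PD1- cells. It stayed far above the array median in all groups, and GFP+ Tfh replicate 2 was the lowest array. The difference of GFP+ Tfh cells was -0.48 ± 0.18 over CXCR5+PD1- cells (adjusted p = 0.150, limma) and -0.46 ± 0.18 over CXCR5-PD1- cells (adjusted p = 0.178), and those of GFP- Tfh cells were -0.30 and -0.27 (adjusted p = 0.556 and 0.641). With weights per array, which put 1.87 on GFP+ Tfh replicate 2 and 0.266 and 0.226 on replicates 1 and 3, the first 2 were -0.80 and -0.74 and passed (adjusted p = 0.00607 and 0.0116, limma). Without GFP+ Tfh replicate 2 they were -0.27 and -0.24.

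The start regions of the Gpr18 and Gpr183 genes are shown because these adjacent genes differ in their result, and that of S1pr2 because it alone, of the 5 receptor genes matched to RefSeq's promoter table (S1pr2, S1pr4, Gpr183, Cxcr4 and Gpr18), holds a motif searched for. Each runs 5′ to 3′ on the minus strand of GRCm38.p6, from 250 bases before to 50 bases after the annotated start. Gpr18 is chr14:121915839-121916138, Gpr183 is chr14:121965144-121965443 and S1pr2 is chr9:20976744-20977043. Capitals mark a match on either strand to a searched motif, and in S1pr2 they mark the reverse complement of CACACCC, the KLF type motif.
Gpr18: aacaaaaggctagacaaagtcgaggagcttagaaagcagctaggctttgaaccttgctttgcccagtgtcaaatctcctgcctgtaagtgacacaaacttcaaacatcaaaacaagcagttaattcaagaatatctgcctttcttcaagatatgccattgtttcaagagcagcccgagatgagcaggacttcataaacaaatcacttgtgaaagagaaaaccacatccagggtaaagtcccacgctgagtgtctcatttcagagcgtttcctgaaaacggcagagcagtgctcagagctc
Gpr183: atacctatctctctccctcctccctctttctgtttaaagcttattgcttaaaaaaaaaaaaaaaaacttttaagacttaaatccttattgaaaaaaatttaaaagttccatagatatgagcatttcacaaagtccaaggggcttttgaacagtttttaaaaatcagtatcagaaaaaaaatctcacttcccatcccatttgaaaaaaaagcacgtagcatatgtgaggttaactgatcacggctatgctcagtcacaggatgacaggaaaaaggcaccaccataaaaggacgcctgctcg
S1pr2: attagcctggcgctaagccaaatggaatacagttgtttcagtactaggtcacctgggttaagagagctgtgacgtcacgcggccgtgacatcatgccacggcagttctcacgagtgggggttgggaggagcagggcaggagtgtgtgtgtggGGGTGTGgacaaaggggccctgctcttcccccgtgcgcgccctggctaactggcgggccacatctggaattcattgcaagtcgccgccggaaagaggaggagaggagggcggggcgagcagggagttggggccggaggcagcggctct

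The motifs searched on both strands were CACACCC (KLF type), GTAAACA (FOXO type) and CAGCTG (E-box type). Of 32851 promoters of this length, 7.95% held the first, 3.65% the second and 16.3% the third. The S1pr2 match lies at positions 153 to 159 of its window, counted from 1 at the 5′ end. The Gpr18, Gpr183, S1pr4 and Cxcr4 windows held none of the 3. A match is a description of these letters and says nothing of a factor's binding.

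Selplg, the gene of the selectin ligand PSGL-1, was lower in Tfh cells. It measured 8.0, 8.06 and 7.22 in GFP+ Tfh cells, 8.16, 7.87 and 7.76 in GFP- Tfh cells, 8.88, 9.07 and 9.32 in CXCR5+PD1- cells and 8.98, 9.32 and 9.33 in the CXCR5-PD1- cells. The Tfh arrays were all below the PD1- arrays, and GFP+ Tfh replicate 3 was the lowest. In GFP+ Tfh cells Selplg fell by 1.33 ± 0.22 over CXCR5+PD1- cells (2.51-fold lower, adjusted p = 0.00418, limma) and by 1.45 ± 0.22 over CXCR5-PD1- cells (2.73-fold lower, adjusted p = 0.00221). In GFP- Tfh cells it fell by 1.16 ± 0.22 over CXCR5+PD1- cells (adjusted p = 0.0117, limma) and by 1.28 ± 0.22 over CXCR5-PD1- cells (adjusted p = 0.00602). The GFP- Tfh call over CXCR5+PD1- cells was lost without GFP- Tfh replicate 2 (adjusted p = 0.0529) or 3 (0.0508) or CXCR5+PD1- replicate 3 (0.0647). The GFP+ Tfh call over CXCR5+PD1- cells was lost when only those 2 groups were fitted (adjusted p = 0.0515, limma).

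**Figure D2:**
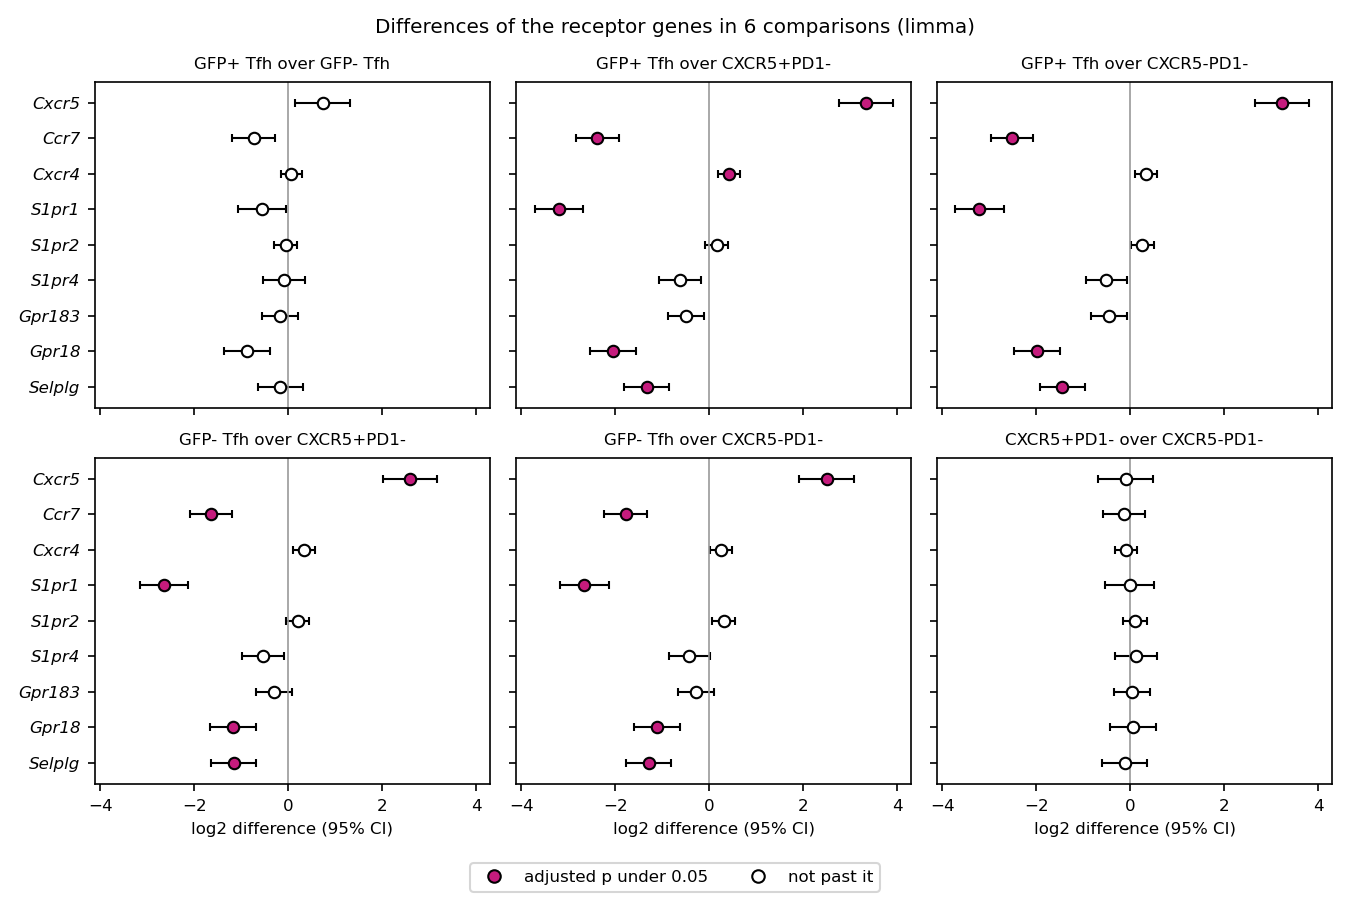
Log2 differences of the 9 receptor genes with 95% confidence intervals in each of 6 limma comparisons, the first-named group minus the second, filled where the adjusted p is under 0.05. Filled points sit in the 4 comparisons of Tfh with PD1- cells, and 0 of 9 are filled in GFP+ Tfh over GFP- Tfh and in CXCR5+PD1- over CXCR5-PD1-.

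The aim of the study was the comparison of GFP+ with GFP- Tfh cells. None of the 9 receptor genes passed there by limma, where 5 of all genes passed, all lower (Il2ra, Itm2a, St8sia6, Adamts6 and Ppp3ca, named after their values were seen), and 828 genes (7.37%) had an unadjusted p under 0.05. Without GFP+ Tfh replicate 1 that count of 5 became 237, and without GFP- Tfh replicate 1 it became 3, with 0 receptor genes among them in both cases. Il21, the gene that GFP reports, lay at 10.25 to 10.82 in GFP+ Tfh cells and at 9.57 to 10.17 in GFP- Tfh cells. In CXCR5+PD1- cells it lay at 5.41 to 7.63 and in CXCR5-PD1- cells at 5.39 to 7.31. By limma Il21 was higher in every comparison of Tfh with PD1- cells and did not pass between the GFP gates. The GFP- Tfh samples thus held Il21 RNA too, so the GFP gates do not set samples with it against samples without it. Cxcr5, Ccr7 and Gpr18 had values that did not overlap between the GFP gates, Cxcr5 by a margin of 0.0034 alone, as did 8.74% of all genes. Gpr18 was at -0.88 ± 0.22 (unadjusted p = 0.00219, adjusted p = 0.411, limma) and Ccr7 at -0.74 ± 0.20 (unadjusted p = 0.00396, adjusted p = 0.416). Cxcr5 was at 0.74 ± 0.26 (adjusted p = 0.561, limma) and S1pr1 at -0.55 ± 0.24 (adjusted p = 0.650).

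Within arrays of the same replicate number, Ccr7 was lower in GFP+ than in GFP- Tfh cells by nearly equal amounts, at -0.81, -0.64 and -0.76 for numbers 1, 2 and 3. Ccr7 was lowest in replicate 1 and highest in replicate 3 in all 4 groups, so its replicates shifted together. With the replicate number as a block its SE fell to 0.11 and its adjusted p was 0.0563 (limma). With sex as a block, replicate 3 against replicates 1 and 2, the adjusted p was 0.153. Gpr18 differed by -0.67, -1.42 and -0.54 and S1pr1 by -0.29, -0.96 and -0.42 in the same pairs, and Cxcr5 by 1.03, 0.0034 and 1.17. Their adjusted p with the replicate block were 0.284, 0.374 and 0.419. S1pr1, like Ccr7, was highest in replicate 3 in all 4 groups, and sex and replicate 3 cannot be told apart. Gpr18 passed with weights per array, at -1.14 (adjusted p = 0.0476, limma), a fit that leans on GFP+ Tfh replicate 2, its lowest array.

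**Figure D3:**
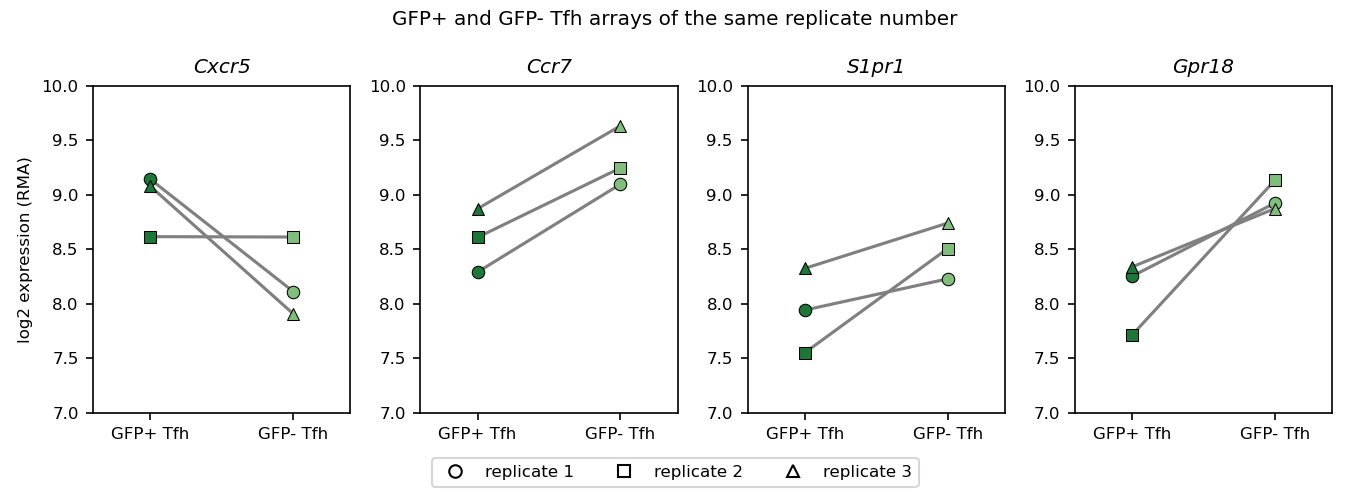
Log2 expression of Cxcr5, Ccr7, S1pr1 and Gpr18 in GFP+ and GFP- Tfh cells, with lines joining arrays of the same replicate number. The 3 Ccr7 lines are nearly parallel (-0.81, -0.64 and -0.76), the Cxcr5 line of replicate 2 is flat (0.0034), and Gpr18 differs most in replicate 2 (-1.42).

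The remaining receptor genes differed less between the GFP gates. Gpr183 was at -0.18 with a 95% interval of -0.57 to 0.20, Selplg at -0.17 (-0.65 to 0.31), S1pr4 at -0.09 (-0.53 to 0.36), S1pr2 at -0.05 (-0.30 to 0.20) and Cxcr4 at 0.07 (-0.16 to 0.30). The intervals of S1pr2 and Cxcr4 were the narrowest. The sign of Gpr183 turned without GFP+ Tfh replicate 2 (0.04), that of Selplg without GFP+ Tfh replicate 3 (0.10) and that of S1pr4 without GFP+ Tfh replicate 1 (0.05).

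In CXCR5+PD1- over CXCR5-PD1- cells the 9 differences ran from -0.14 for Ccr7 to 0.12 for S1pr4, and the values of every receptor gene overlapped between the groups. The widest 95% interval was that of Cxcr5 and the narrowest that of Cxcr4, at -0.32 to 0.14. In this comparison same-numbered arrays deviated together, with correlations of 0.210 to 0.353, and the replicate block left 0 genes past the threshold.

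The levels of each gene were ordered across the groups as follows. Ccr7 and Gpr18 had their lowest values in GFP+ Tfh cells, then GFP- Tfh cells, then the PD1- groups, whose order did not differ beyond their spread. The step between the GFP gates did not pass for either (adjusted p = 0.416 and 0.411, limma), and 8.74% of all genes did not overlap there. S1pr1 and Selplg had the same order of Tfh under PD1- cells, but GFP+ and GFP- Tfh arrays overlapped. Cxcr5 was higher in Tfh than in PD1- cells, and its PD1- groups overlapped. Its GFP+ Tfh arrays lay above the GFP- Tfh arrays by 0.0034 at the closest, and that step did not pass (adjusted p = 0.561, limma). For Cxcr4, S1pr2, S1pr4 and Gpr183, neighbouring groups in the order overlapped or differed by less than the test could call.

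The receptor genes were also described by the genes whose profile over the 12 arrays was most like theirs among 10433 tested genes. These correlations share the 4 groups and the arrays, and their size reflects the group differences. Ccr7 was most like S1pr1 (Pearson r = 0.985) and St8sia6 (0.981), and S1pr1 most like Il4ra (0.986) and Stt3b (0.986). Cxcr5 was most like Sec14l1 (0.989) and Casp1 (0.982), Gpr18 like Itga6 (0.979) and Crip1 (0.976), and Selplg like Rpl4 (0.978) and Stk38 (0.973). Cxcr4 was most like Rab11fip1 (0.971) and Eif2ak4 (0.953), and Gpr183 like Ganab (0.932) and Zbtb18 (0.920). S1pr2 was most like Galnt2 (0.931) and Stau2 (0.909), and S1pr4 like Mymk (0.899) and Lratd2 (0.878). Among the 9 genes themselves, Cxcr5 ran against Ccr7 (r = -0.979) and S1pr1 (-0.975), while S1pr4 ran against Cxcr4 (-0.903), and the flattest, S1pr2, had its strongest relation with Cxcr5 (0.771).

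Of the 12 transcription factors listed as described regulators of these receptors, 10 were tested. In GFP+ Tfh cells 1 was higher (Bcl6) and 2 lower (Klf2, Foxp1) over each PD1- group, in GFP- Tfh cells 1 higher (Bcl6) and 1 lower (Foxp1) over CXCR5+PD1- cells, and 1 higher (Bcl6) and 2 lower (Foxp1, Klf2) over CXCR5-PD1- cells. These 2 or 3 calls of 10 stand beside 5.89%, 6.20%, 3.75% and 3.82% of all genes called in the same 4 comparisons. The list's median difference ran from -0.12 to -0.09, beside -0.03 to 0.00 over all genes. Bcl6, the repressor that directs Tfh differentiation, was at 9.95 ± 0.20 in GFP+ Tfh cells, 9.69 ± 0.27 in GFP- Tfh cells, 8.17 ± 0.10 in CXCR5+PD1- cells and 8.29 ± 0.11 in the CXCR5-PD1- cells. Foxp1, a factor of naive T cells, fell by 0.60 ± 0.11 and 0.61 ± 0.11 in GFP+ Tfh cells and by 0.77 ± 0.11 in GFP- Tfh cells over both PD1- groups. Its GFP+ Tfh calls were lost when only those 2 groups were fitted (adjusted p = 0.0754 and 0.0998, limma).

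Klf2 was at 8.52 ± 0.20 in GFP+ Tfh cells, 8.62 ± 0.16 in GFP- Tfh cells, 9.19 ± 0.18 in CXCR5+PD1- cells and 9.26 ± 0.10 in the CXCR5-PD1- cells. It fell by 0.67 ± 0.14 in GFP+ Tfh over CXCR5+PD1- cells (adjusted p = 0.0176, limma), by 0.74 ± 0.14 over CXCR5-PD1- cells (adjusted p = 0.0101) and by 0.64 ± 0.14 in GFP- Tfh over CXCR5-PD1- cells (adjusted p = 0.0292), and was at -0.57 (adjusted p = 0.0507) in GFP- Tfh over CXCR5+PD1- cells. These are smaller differences than those of S1pr1 on the same arrays. Its call over CXCR5+PD1- cells was lost without GFP+ Tfh replicate 2 (adjusted p = 0.0504) or CXCR5+PD1- replicate 3 (0.0870), and that of GFP+ Tfh over CXCR5-PD1- cells without CXCR5-PD1- replicate 3 (0.0543). These 2 GFP+ Tfh calls were also lost with 1 weight per group (adjusted p = 0.0758 and 0.0563, limma) and with only the 2 groups fitted (0.105 and 0.0705). The GFP- Tfh call was lost without GFP- Tfh replicate 1 (0.0924) or 2 (0.134) or CXCR5-PD1- replicate 1 (0.0628), 2 (0.0865) or 3 (0.125).

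The partners of egress and lymph node entry, of which 8 of 9 listed were tested, held changes in both directions. Cd44 and Itgal, an adhesion receptor and the alpha chain of the integrin LFA-1, were higher in all 4 comparisons of Tfh with PD1- cells, and Itgb7, the beta chain of the integrin that binds the mucosal addressin, was lower. In GFP+ Tfh over CXCR5-PD1- cells Cd44 rose by 1.48 ± 0.12, Itgal by 1.38 ± 0.18 and Itgb7 fell by 0.88 ± 0.13 (adjusted p = 4.29e-05, 0.000930 and 0.00228, limma). The list had 3 or 4 calls of 8 in each comparison, beside 3.75% to 6.20% of all genes, and its medians were -0.28 to 0.05. Itgb7's call over CXCR5+PD1- cells was lost in GFP+ Tfh cells with 1 weight per group (adjusted p = 0.0526, limma) and with only the 2 groups fitted (0.0727). Cd69, whose protein binds S1PR1 and removes it from the surface, fell by 0.56 ± 0.14 and 0.63 ± 0.14 in GFP+ Tfh over CXCR5+PD1- and CXCR5-PD1- cells (adjusted p = 0.0361 and 0.0200, limma) and was at -0.36 and -0.43 in GFP- Tfh cells (adjusted p = 0.256 and 0.142). Its call over CXCR5+PD1- cells was lost without GFP+ Tfh replicate 2 (adjusted p = 0.0929) or 3 (0.0792) or CXCR5+PD1- replicate 1 (0.113), 2 (0.0746) or 3 (0.135), and over CXCR5-PD1- cells without GFP+ Tfh replicate 2 (0.0586) or CXCR5-PD1- replicate 1 (0.0594) or 3 (0.0872). Both Cd69 calls were also lost with 1 weight per group (adjusted p = 0.0905 and 0.0629, limma) and with only the 2 groups fitted (0.174 and 0.142). Itgal's GFP- Tfh call over CXCR5+PD1- cells was lost without CXCR5+PD1- replicate 3 (0.0508).

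Of the G protein coupling and desensitisation genes, 24 of 31 listed were tested, and 2 to 4 were higher and 0 or 1 lower in each comparison of Tfh with PD1- cells, where 2.22% to 2.58% of all genes were higher and 1.42% to 3.75% lower. The list's medians were 0.01 to 0.16. Gna13, the subunit through which S1PR2 signals, rose by 0.65 ± 0.15 and 0.61 ± 0.15 in GFP+ Tfh cells and by 0.78 ± 0.15 and 0.73 ± 0.15 in GFP- Tfh cells over CXCR5+PD1- and CXCR5-PD1- cells (adjusted p = 0.0244, 0.0337, 0.0125 and 0.0174, limma). Its calls over CXCR5+PD1- cells were lost without GFP+ Tfh replicate 2 (0.0738), CXCR5+PD1- replicate 1 (0.0885, in GFP+ Tfh) or GFP- Tfh replicate 2 (0.0631). In GFP+ Tfh over CXCR5-PD1- cells its call was lost without GFP+ Tfh replicate 1 (0.0524) or 2 (0.0983) or any CXCR5-PD1- replicate (0.0728 to 0.115), and in GFP- Tfh cells without GFP- Tfh replicate 2 (0.0837) or 3 (0.0534) or CXCR5-PD1- replicate 1 (0.0707) or 2 (0.0653). Both GFP+ Tfh calls of Gna13 were also lost with 1 weight per group (adjusted p = 0.122 and 0.172, limma) and with only the 2 groups fitted (0.149 and 0.111). Gng2, a gamma subunit, rose in GFP- Tfh cells by 0.96 ± 0.18 over CXCR5+PD1- and 1.14 ± 0.18 over CXCR5-PD1- cells, and was at 0.43 and 0.61 in GFP+ Tfh cells. Its call over CXCR5+PD1- cells was lost without GFP- Tfh replicate 2 (0.0543) or CXCR5+PD1- replicate 2 (0.0561). Rgs16, which speeds the switching off of G proteins, was at 1.27 to 1.49 in the 4 comparisons and missed the threshold in GFP- Tfh over CXCR5-PD1- cells (adjusted p = 0.0583, limma). Its other calls were each lost without some single array, at adjusted p of 0.0573 to 0.143.

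The other 4 lists had 0 to 4 calls each in a comparison. In the 4 comparisons of Tfh with PD1- cells 3.75% to 6.20% of all genes passed, and 1 call in lists this short is not far from that share. Of 17 genes that make, break down or scavenge the receptors' ligands 9 were tested, and Cxcl13, which encodes CXCR5's ligand, was higher by 0.49 ± 0.12 in GFP+ Tfh and by 0.56 ± 0.12 in GFP- Tfh over CXCR5+PD1- cells, at a level near or below the array median (5.82 to 6.54 on all arrays). Its GFP+ Tfh call was lost with the replicate block (adjusted p = 0.0553, limma) and without CXCR5+PD1- replicate 1 (0.106), 2 (0.0857) or 3 (0.125), and its GFP- Tfh call without the same arrays (0.0891, 0.0698 and 0.104). Of 12 PSGL-1 ligand site and linker genes 10 were tested, and St3gal4, a sialyltransferase, was lower in GFP+ Tfh cells over CXCR5+PD1- cells (-0.67 ± 0.16) and CXCR5-PD1- cells (-0.69 ± 0.16), as was St3gal6 over CXCR5-PD1- cells (-1.16 ± 0.27). The St3gal4 call over CXCR5+PD1- cells was lost with the replicate block (0.0525), without GFP+ Tfh replicate 2 or 3 and without any CXCR5+PD1- replicate (0.0544 to 0.140). Over CXCR5-PD1- cells it was lost without GFP+ Tfh replicate 2 or 3 or any CXCR5-PD1- replicate (0.0501 to 0.116), and that of St3gal6 without GFP+ Tfh replicate 1 or 2 or CXCR5-PD1- replicate 2 or 3 (0.0530 to 0.0800).

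Of 25 motility genes listed 24 were tested, and 1 passed in each of the 4 comparisons of Tfh with PD1- cells. That is near the share of all genes called, 3.75% to 6.20%. The gene was Rap1a, a small GTPase that activates integrins, which was higher by 0.62 to 0.84. Its GFP- Tfh calls were lost without GFP- Tfh replicate 1 or 2, without any CXCR5+PD1- replicate over those cells (0.0960 to 0.186 in all) and without CXCR5-PD1- replicate 2 or 3 over those cells (0.104 to 0.134 with the GFP- Tfh arrays). Of 29 other guidance receptors 17 were tested. In GFP+ Tfh cells 1 was lower over CXCR5+PD1- cells, near the 5.89% of all genes called there. Over CXCR5-PD1- cells 1 was higher and 3 lower, beside 6.20% of all genes. In GFP- Tfh cells 0 passed. Gpr132, a receptor of lysolipids and acid, was lower in GFP+ Tfh cells by 1.07 ± 0.21 over CXCR5+PD1- and 1.12 ± 0.21 over CXCR5-PD1- cells (adjusted p = 0.00988 and 0.00735, limma). The first call was lost without CXCR5+PD1- replicate 3 (0.0520), with 1 weight per group (0.0585) and with only the 2 groups fitted (0.0629), and the second with 1 weight per group (0.0558). Past the threshold in 1 comparison each were Arhgef12, in GFP- Tfh over CXCR5+PD1- cells (1.10), and Ccr6 (0.89) and P2ry14 (-0.78) in GFP+ Tfh over CXCR5-PD1- cells, and so were Grk6, Gnaq and Ccr9, named after their values were seen and not followed under the alternatives. The Arhgef12 call was lost in 4 of 16 alternatives, without GFP- Tfh replicate 1 or 2 or CXCR5+PD1- replicate 1 or 3 (0.0590 to 0.102). The Ccr6 call was lost in 8 of 16, among them without GFP+ Tfh replicate 1 or 2 or CXCR5-PD1- replicate 2 or 3 (0.0903 to 0.162), and the P2ry14 call in 9 of 15, among them without any GFP+ Tfh replicate or CXCR5-PD1- replicate 2 or 3 (0.0548 to 0.140). In GFP+ Tfh over GFP- Tfh cells and between the PD1- groups 0 genes of these 7 lists passed by limma.

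**Figure D4:**
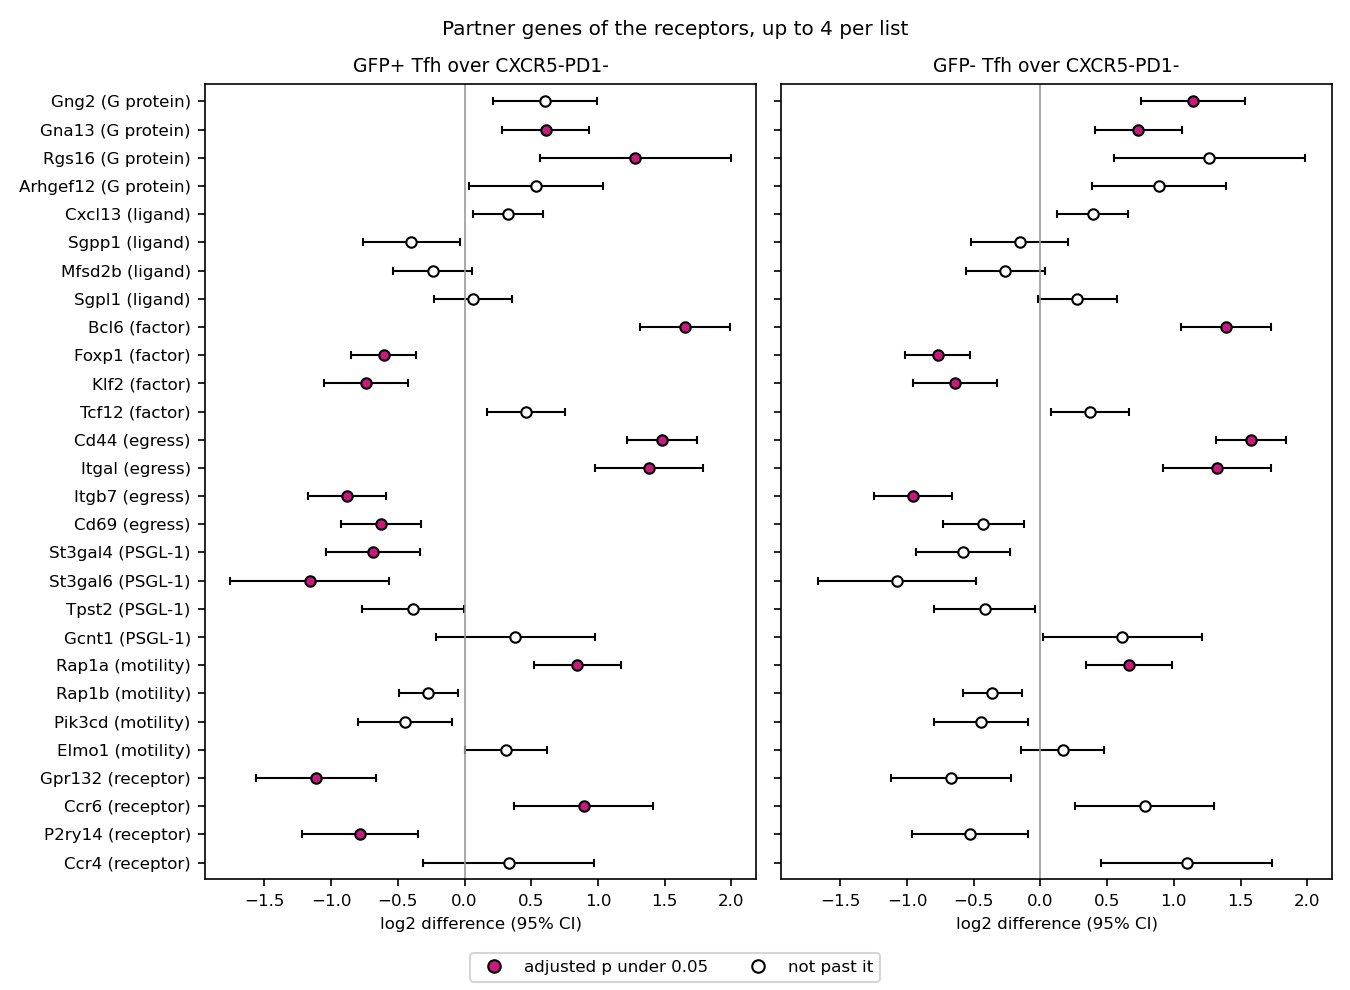
Log2 differences with 95% confidence intervals of up to 4 partner genes per list, those with the smallest F-test p over the 4 groups, in GFP+ Tfh (left) and GFP- Tfh (right) over CXCR5-PD1- cells, filled where the limma adjusted p is under 0.05. Cd44, Itgal and Bcl6 are the most raised on both sides (1.32 to 1.66), and Itgb7, Foxp1 and Klf2 are lower and filled on both. St3gal6 and Gpr132 lie lower still on the left (-1.16 and -1.12) and are filled there alone.

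Markers of other T cell states also differed between the groups. The 7 genes measured of naive and recirculating T cells, which include Ccr7, S1pr1 and Klf2, had a median of 1.84 to 1.89 above the array median in GFP+ Tfh cells, 2.13 to 2.33 in GFP- Tfh cells, 4.03 to 4.43 in CXCR5+PD1- cells and 4.20 to 4.33 in the CXCR5-PD1- cells, and all 7 were above the array median in the PD1- groups against 6 in the Tfh groups. Their summed linear level was 1842 to 2371, 2768 to 3334, 7784 to 10506 and 8657 to 10736 in the same groups. Ccr7 and S1pr1 are also among the receptor genes described here, so this list shares values with them. Its median and sum were not taken without these genes. Of the rest, Il7r, Lef1, Igfbp4 and Dapl1 were lower and passed in all 4 comparisons of Tfh with PD1- cells. Klf2 passed as lower in all but GFP- Tfh over CXCR5+PD1- cells, where it was lower and did not pass. The 6 regulatory T cell markers went in both directions. Ikzf2 and Ctla4 were higher in all 4 comparisons of Tfh with PD1- cells, while Il2ra was lower in GFP+ Tfh cells than in each other group and Foxp3 lower in GFP+ Tfh over CXCR5-PD1- cells. Their median above the array median was -0.06 to 0.39 in GFP+ Tfh cells, 1.55 to 1.85 in GFP- Tfh cells, 1.65 to 1.96 in CXCR5+PD1- cells and 1.91 to 2.32 in the CXCR5-PD1- cells. Their summed linear level ran the other way, at 6545 to 7140, 6921 to 7626, 2801 to 4039 and 3095 to 4296 in the same groups. The 9 markers of CD8, NK and gamma delta T cells summed to 460 to 498, 529 to 675, 606 to 1093 and 630 to 1066. Of 5 tested 1 passed, Cd8b1, lower in GFP- Tfh over CXCR5-PD1- cells, where 3.82% of all genes passed. Of 7 myeloid and dendritic markers tested 1 passed, Lyz2, higher in GFP+ Tfh over CXCR5+PD1- cells, where 5.89% of all genes passed. Of the 12 myeloid and dendritic markers measured, 3 (Cd68, Tyrobp and Cst3) were above the array median on all arrays of each group. The median of the 12 ran from -0.58 to 0.01 against the array median. Of the 9 stromal and endothelial markers measured, Col1a1, Col1a2 and Pecam1 were above it in each group, and Pdpn in both PD1- groups. The median of those 9 ran from -0.55 to 0.03. The 12 myeloid and dendritic markers measured summed to 1010 to 1777, 1213 to 1552, 1106 to 1437 and 1055 to 1521 in the same order of groups. Of 4 B cell markers tested 1 passed, Pax5, higher in GFP+ Tfh over CXCR5-PD1- cells, where 6.20% of all genes passed. It lay at 6.55 to 6.59 in GFP+ Tfh cells and 6.04 to 6.20 in CXCR5-PD1- cells. The 11 B cell markers measured summed to 620 to 738, 624 to 699, 639 to 668 and 589 to 690. In lists this short, 1 call is not far from those shares of all genes. The part of these cell types and states in the receptor differences was not tested.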

How the data were processed

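RNA of 12 sorted CD4+ T cell samples was hybridised to Affymetrix mouse gene arrays after whole-transcript cDNA synthesis, per the labels' protocols. The authors deposited log2 expression of 34760 probe sets. Per the submitters' processing notes they used RMA through oligo, which gives the arrays 1 common distribution, takes out shifts shared by most genes and compresses low signals. No genome build was given in the sources used here. Of 12 columns 0 were left unmapped.

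Names came from the array platform's gene table, brought up to date with RefSeq (GRCm38.p6), for the 21640 probe sets with 1 symbol (21553 matched by gene identifier, 87 kept an older symbol). The 1321 with several symbols and 11799 unnamed here were left out. The probe set with the highest mean stood for each of 19937 genes, 954 of which had several. Genes above the array median on at least 3 arrays were tested (11240), which took out 8697.

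The 6 comparisons were contrasts of 1 model of 12 arrays in 4 groups (limma 3.58.1, R 4.3.3), with 8 residual and 11.5 total degrees of freedom, Benjamini-Hochberg adjusted over the genes tested at 0.05. Precision is limited by the number of arrays. The code was tested on simulated data. Members and lists were chosen with earlier results of these data known. Named are the 9 receptor genes, the sort markers, up to 4 genes per list with the smallest F-test p, and for each receptor gene the 2 most correlated genes.

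Same-numbered arrays deviated together between the PD1- groups (correlations 0.210 to 0.353), while in each other comparison at least 1 pair was under 0.1. Alternatives changed the filter (none, or the 70th percentile), moderation, weights, groups fitted, block, probe set rule and normalisation, and left out each array.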

Additional observations from a re-analysis of the deposited data

How the results depend on the processing

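For each of the 9 receptor genes 16 alternatives were run (15 for S1pr2, which did not pass the stricter filter), and Cxcr5, Ccr7 and S1pr1 kept direction and call in all of them in the 4 comparisons of Tfh with PD1- cells. Gpr18 and Selplg kept theirs except where given above. Cxcr4 passed in other comparisons under some settings, at adjusted p = 0.0103 to 0.0411 (limma). With 1 weight per group, array weights and only the 2 groups compared, the genes called were 3, 95 and 0 in GFP+ over GFP- Tfh (5 in the fit reported), 331, 1437 and 234 in GFP+ Tfh over CXCR5+PD1- (662), 314, 1411 and 255 in GFP+ Tfh over CXCR5-PD1- (697), 843, 1042 and 776 in GFP- Tfh over CXCR5+PD1- (422) and 791, 912 and 665 in GFP- Tfh over CXCR5-PD1- (429). Leaving out 1 array gave 3 to 237, 336 to 1007, 347 to 1142, 214 to 319 and 227 to 326 in the same order. The highest of the first 3 came without GFP+ Tfh replicate 1, and the lowest of the last 4 without replicate 3 of the PD1- group. Counts also moved by over 1.5 times without CXCR5+PD1- replicate 1 (418) or 2 (373) in GFP+ Tfh over CXCR5+PD1-, CXCR5-PD1- replicate 2 (438) in GFP+ Tfh over CXCR5-PD1-, GFP- Tfh replicate 1 (233) or 2 (238) or CXCR5+PD1- replicate 1 (280) or 2 (231) in GFP- Tfh over CXCR5+PD1-, and GFP- Tfh replicate 1 (281) or 2 (237) or CXCR5-PD1- replicate 2 (265) in GFP- Tfh over CXCR5-PD1-, and without GFP- Tfh replicate 1 (3) in GFP+ over GFP- Tfh. Receptor genes called were then 0, 5 to 6, 5, 3 to 5 and 4 to 5, and 1 (Gpr18) in GFP+ over GFP- Tfh with array weights. With the replicate block the Cxcr4 call was lost (adjusted p = 0.0600) and no other receptor gene changed its call. Of the partner calls the block ended those of Cxcl13 (0.0553) and St3gal4 (0.0525), both in GFP+ Tfh over CXCR5+PD1-. Leaving out 1 array turned the sign of uncalled differences. In GFP+ over GFP- Tfh they ran from -0.19 to 0.045 for S1pr4, from -0.299 to 0.036 for Gpr183 and from -0.318 to 0.0999 for Selplg, the highest without GFP+ Tfh replicate 1, 2 and 3 in that order. In CXCR5+PD1- over CXCR5-PD1- they ran from -0.277 to 0.136 for Cxcr5, -0.273 to 0.028 for Ccr7, -0.161 to 0.172 for S1pr1, -0.0073 to 0.351 for S1pr4, -0.045 to 0.104 for Gpr183 and -0.137 to 0.248 for Gpr18. With array weights S1pr4 was at 0.034 in GFP+ over GFP- Tfh and S1pr1 at 0.023 between the PD1- groups, where cyclic loess put S1pr1 at 0.013. The cause was not tested. The same alternatives, added for named partner genes after seeing the data, turned the sign of no called difference. Bcl6 and Cd44 kept their calls in all 16 in the 4 comparisons, while Rgs16 kept its calls in 9 to 12, Rap1a in 11 to 16, St3gal4 in 7 or 8 of 15, and Cxcl13 in 7 of 14 and 10 of 13. The fits with 1 weight per group and with only the 2 groups compared each also ended the GFP+ Tfh calls of Cxcl13, St3gal4 and St3gal6.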
